A study of Homo sapiens with 6 samples.

Results

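Phosphatidate and choline phospholipid synthesis was followed through 10 genes: GPAM, AGPAT1, AGPAT5, LPIN1, LPIN2, CHKA, PCYT1A, PCYT2, CEPT1 and CHPT1. They were taken by symbol from the 14456 genes of the deposited table, and all 10 were present and tested. PolyA RNA was sequenced from C4-2, a castration-resistant prostate cancer line derived from LNCaP, grown in RPMI with serum. One group of 3 libraries came from cells given IPI-9119, an inhibitor of fatty acid synthase, at 100 nM, and the other from cells given 0.1% DMSO, with a treatment of 6 days. Whether the treated cells also received DMSO, and whether the replicates were separate cultures, was not given in the sources used here, so each p-value reflects only how far these libraries differ among themselves, which may be technical. All libraries are of a single line, and no batch is labelled, so any library batch that coincides with treatment cannot be told apart from it.

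Cells build glycerophospholipids by adding acyl chains to glycerol 3-phosphate. GPAM and its relatives add the first chain, AGPAT enzymes add the second to give phosphatidate, and lipins remove the phosphate to give diacylglycerol. In the parallel Kennedy pathway, choline kinase, a cytidylyl transferase and a terminal phosphotransferase activate choline and join it to diacylglycerol as phosphatidylcholine, the main membrane phospholipid. PCYT2 makes the CDP-ethanolamine used for phosphatidylethanolamine. The acyl chains come from fatty acid synthase or from uptake, which ties the pathway to the enzyme inhibited here. The comparison asked how expression of these enzymes differed after the inhibitor. In bulk RNA, a change in the makeup of the cells and a change in RNA per cell cannot be told apart.

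Recovered read totals ran from 19090749 to 23448035 per library, and the 10 genes held between 531 and 19278 reads in any library. All 10 luminal prostate markers reported, KLK3 and KRT18 among them, were tested, with 8 lower and 1 higher in the IPI-9119 libraries. Their summed level was 256036 to 268969 normalised counts with DMSO and 151787 to 158107 with IPI-9119. Of all genes tested, 31.4% were called lower and 31.3% higher. Of 16 markers of basal, leukocyte, endothelial and fibroblast cells, 4 were tested and 0 passed limma (0 at an unadjusted p under 0.05, 0 by edgeR and 0 by DESeq2). The basal and leukocyte markers were not analysed here. The part that the lower luminal markers have in the results for lipid genes was not tested.

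Of the 10 genes, 7 rose, 0 fell and 3 did not pass in limma, and none of the 10 was lower at an unadjusted p under 0.05 (0), by edgeR (0) or by DESeq2 (0). LPIN1 rose most, 4.51-fold, followed by AGPAT5 (2.10-fold), CHPT1 (1.84-fold) and CHKA (1.53-fold). CEPT1, PCYT2 and GPAM rose by 1.31-fold, 1.27-fold and 1.18-fold, and AGPAT1, LPIN2 and PCYT1A did not pass. A call required an adjusted p under 0.05 (limma on log2(normalised count + 1), Benjamini-Hochberg over 14437 genes), and 31.3% of all genes tested were called higher and 31.4% lower. The median log2 fold change was 0.37 over the 10 genes and 0.0017 over all genes. At least a 2-fold rise was called for 2 of the 10, against 7.92% of all genes. In 8 of the 10 all IPI-9119 libraries lay above all DMSO libraries, a pattern seen in 34% of all genes.

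**Figure D1:**
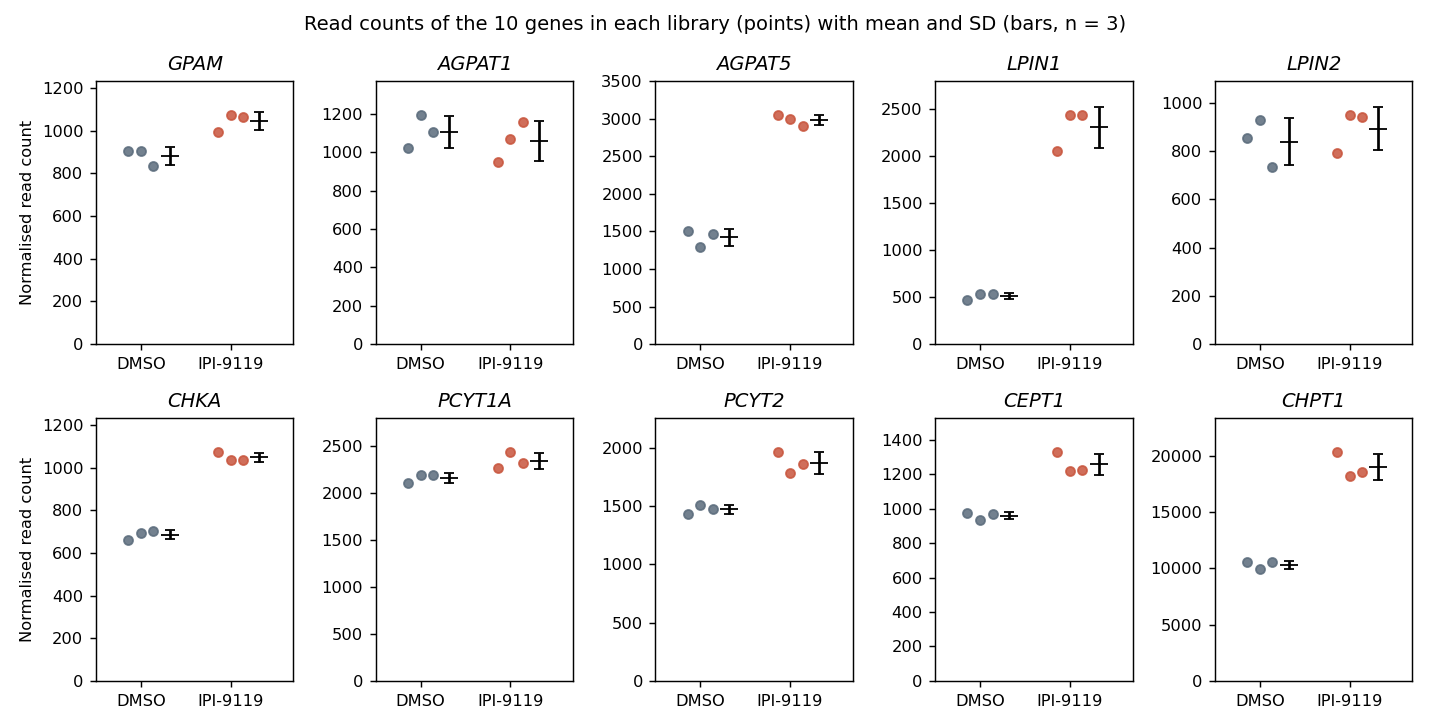
Normalised read counts of the 10 genes (y axis, from 0, a separate scale for each gene) in the 3 DMSO and 3 IPI-9119 libraries, as points in replicate order, with mean and SD as bars (n = 3). The groups are far apart for LPIN1, AGPAT5 and CHPT1, close for PCYT1A and GPAM, and overlapping for AGPAT1 and LPIN2.

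The first acylation gave small differences in the main enzymes and a large one in a scarce isozyme. GPAM, the mitochondrial glycerol-3-phosphate acyltransferase (ENSG00000119927, chromosome 10, 112149864 to 112215377, minus strand, in GENCODE 29 on GRCh38), gave 904, 906 and 834 normalised counts with DMSO and 995, 1071 and 1065 with IPI-9119. The treated libraries were all above the controls, and the gap between the groups was similar to the spread within them. The means of GPAM were 881 ± 40.9 and 1044 ± 42.1 (SD, n = 3), which is a log2 difference of 0.24 (SE 0.065, limma adjusted p 0.00453). A second value was computed for every gene after a spline fit removed each library's trend with exonic length and GC percent, called the composition adjustment here. GPAT4, an isozyme of the endoplasmic reticulum, rose by 0.29 on the log2 scale, and by 0.59 with the composition adjustment. GPAT3, the other isozyme of that membrane, had 9 reads in each DMSO library and 78, 54 and 59 in the IPI-9119 libraries, which is 8.27 ± 0.224 and 68.7 ± 12.1 normalised counts (SD, n = 3). Its log2 fold change of 2.90 was the largest in the pathway. Per kilobase of exon GPAT3 remained below its relatives, at 19.8 ± 3.49 normalised counts with IPI-9119 against 106 ± 4.29 for GPAM and 296 ± 7.30 for GPAT4 (SD, n = 3).

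The listed genes of glycerol 3-phosphate metabolism were also higher, 3 of 3 tested, against 31.3% of all genes tested. GPD1L, of the glycerol-3-phosphate dehydrogenase family, rose by 1.02 on the log2 scale and the mitochondrial dehydrogenase GPD2 by 0.58. Glycerol kinase GK rose by 0.32, a call that ended with the composition adjustment (0.090, adjusted p 0.270).

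AGPAT5 and AGPAT1, both of which add the second acyl chain, had different values. AGPAT5 (ENSG00000155189, chromosome 8) gave 1502, 1296 and 1462 normalised counts with DMSO and 3045, 2997 and 2907 with IPI-9119. Every treated library lay far above the highest control. The means of AGPAT5 were 1420 ± 109 and 2983 ± 70.04 (SD, n = 3), which is a log2 difference of 1.07 (SE 0.060, limma adjusted p 2.6e-09). AGPAT1 (ENSG00000204310, chromosome 6, 32168212 to 32178096, minus strand) gave 1021, 1192 and 1104 with DMSO and 948, 1071 and 1155 with IPI-9119, with overlapping groups. Its log2 fold change was -0.07 (SE 0.080, limma adjusted p 0.497). With the composition adjustment AGPAT1 passed the threshold as lower, at -0.18 (adjusted p 0.0455), whereas it stood at 0.012 without IPI-9119 replicate 1. Exons of AGPAT1 share 1087 nt with PPT2-EGFL8 on the opposite strand, and the strand setting of the counting was not given in the sources used here, so reads there cannot be told apart. Of the other enzymes of this step, AGPAT2 rose (0.48), while AGPAT3 had a log2 fold change of -0.07 that became 0.59 with the composition adjustment (adjusted p 8.1e-08).

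LPIN1 and LPIN2 encode phosphatidate phosphatases that also act as nuclear coregulators of lipid genes. LPIN1 (ENSG00000134324, chromosome 2, 11677595 to 11827409, plus strand) gave 475, 530.3 and 531 normalised counts with DMSO and 2052, 2436 and 2435 with IPI-9119. The lowest treated library lay far above the highest control. The means of LPIN1 were 512 ± 32.3 and 2307 ± 222 (SD, n = 3), which is a log2 difference of 2.17 (SE 0.077, limma adjusted p 2.9e-11), and 289 of the 14437 genes tested had a larger rise than LPIN1. LPIN2 (ENSG00000101577, chromosome 18, 2916994 to 3013315, minus strand) gave 854, 928 and 734 with DMSO and 792, 948 and 939 with IPI-9119. These groups overlapped, and the log2 fold change of LPIN2 was 0.09 (SE 0.093, limma adjusted p 0.402). LPIN3, the scarcest lipin, fell by 0.47 on the log2 scale (adjusted p 0.0227). LPIN3 did not pass without DMSO replicate 1 (-0.45, adjusted p 0.0664) or DMSO replicate 2 (-0.47, 0.0513), where its value stayed about as large. It was smaller and did not pass without IPI-9119 replicate 1 (-0.31, 0.0955) or with the composition adjustment (-0.34, 0.0694).

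LPIN1 also made up more of the lipin family. Levels of different genes were compared per kilobase of merged exons. By that measure LPIN1 held 20.7%, 21.5% and 25.1% of the lipin counts with DMSO and 56.8%, 56.3% and 56.0% with IPI-9119. LPIN2 went from 63.7% ± 2.81 to 38.05% ± 0.314 (SD, n = 3). The share of LPIN1 was 33.9 percentage points higher in the IPI-9119 libraries with no overlap between the groups. The exact permutation test (two-sided, 3 against 3) gave p = 0.1, which is the smallest this design can give. The difference in the share of LPIN1 was 35.5 points with the longest transcript as length and 35.4 with the coding sequence. The shares themselves depend on the length used, as the merged exons of LPIN1 are 11861 nt and its longest transcript 5690 nt. Summed over the family, the lipin level was 193 ± 14.7 with DMSO and 345 ± 35.2 in the treated libraries per kilobase (SD, n = 3), 1.79-fold higher. This fold depends on the length used as well, and it was computed with merged exons only.

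AGPAT5 made up more of its family as well. Its share per kilobase was 32.4%, 28.1% and 31.9% with DMSO and 46.9%, 45.9% and 44.4% with IPI-9119, a difference of 14.9 percentage points with groups apart (exact permutation p = 0.1). AGPAT1 went from 30.9% ± 2.49 to 20.9% ± 1.97 (SD, n = 3). The summed level of the 4 AGPAT genes was 985 ± 5.37 per kilobase with DMSO and 1394 ± 5.90 with IPI-9119, 1.42-fold higher, while AGPAT5 alone went from 303 ± 23.4 to 637 ± 15.0 (SD, n = 3). Adjusted over the 3 shares examined, these p-values remained 0.1.

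**Figure D2:**
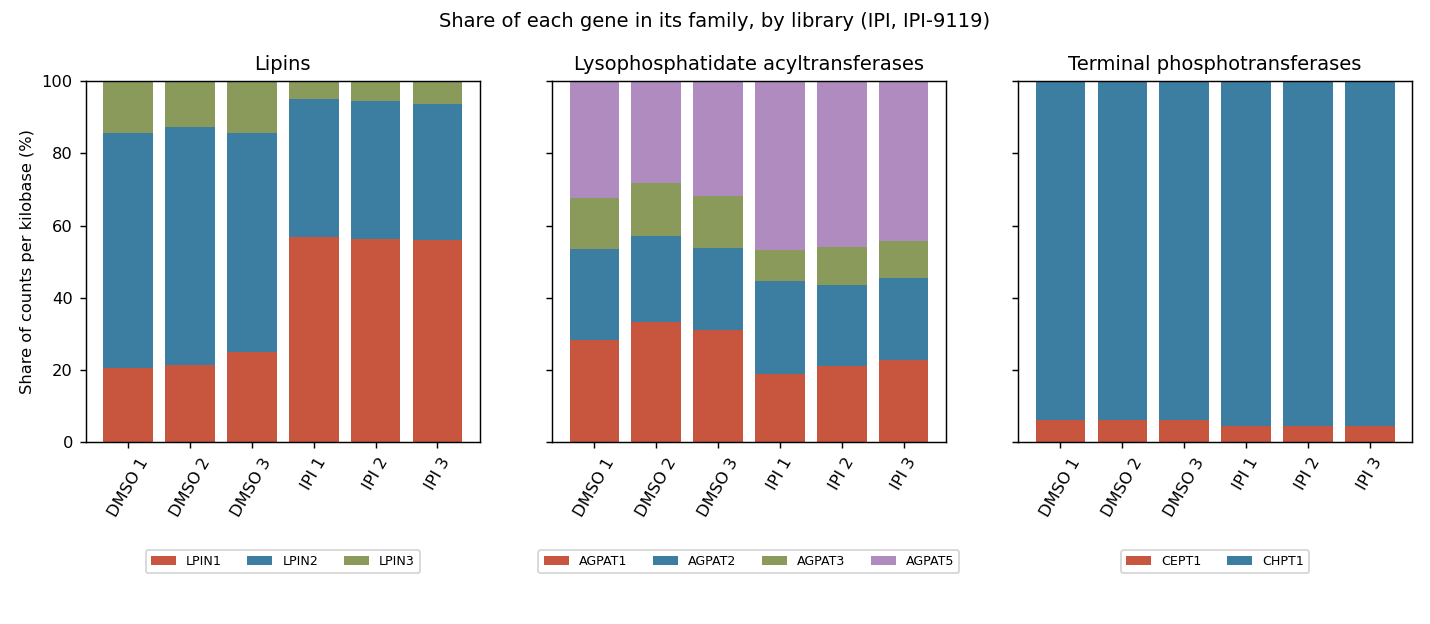
Share of each gene in its enzyme family (y axis, % of normalised counts per kilobase of merged exons) in each of the 6 libraries (x axis), for lipins, lysophosphatidate acyltransferases and the terminal phosphotransferases. LPIN1 took 20.7% to 25.1% of the lipin counts with DMSO and 56.0% to 56.8% with IPI-9119. The terminal phosphotransferases shown are CHPT1 and CEPT1 only, without SELENOI, and CHPT1 took nearly all of that pair in every library.

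Other phosphatidate phosphatases went both ways. PLPP1, a lipid phosphate phosphatase of the cell surface, was by far the most abundant at 9050 ± 263 normalised counts per kilobase with DMSO (SD, n = 3). It fell to 5424 ± 339 with IPI-9119 (SD, n = 3), a log2 difference of -0.74. Exons of PLPP1 share 481 nt with MTREX on the opposite strand and 92 nt with RNF138P1 on the same strand. PLPP2 rose by 1.76 on the log2 scale, its normalised count going from 252 ± 19.2 to 855 ± 53.9 (SD, n = 3), and PLPP5 (0.71) and PLPP3 (0.55) rose less. Of 7 phosphatase genes, with LPIN1, LPIN2 and LPIN3 counted among them, 4 rose, 2 fell and 1 did not pass. The background was 31.3% of all genes tested called higher and 31.4% lower. CTDNEP1, the nuclear envelope phosphatase that dephosphorylates lipins, fell by 0.42 on the log2 scale, and CNEP1R1, its regulatory partner, did not pass (0.11, adjusted p 0.419).

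CHKA, the choline kinase that commits choline to the pathway, rose. The gene (ENSG00000110721, chromosome 11, 68052859 to 68121444, minus strand) gave 661, 694 and 703 normalised counts with DMSO and 1073, 1034 and 1036 with IPI-9119. Both groups were tight and lay well apart. The means of CHKA were 686 ± 22.3 and 1048 ± 22.1 (SD, n = 3), which is a log2 difference of 0.61 (SE 0.063, limma adjusted p 1.3e-06). Exons of CHKA share 631 nt with an antisense gene. CHKB, the second choline kinase, was counted with only 12 to 19 reads per library and did not pass (0.38, adjusted p 0.317). Its exons share 2189 nt with CHKB-CPT1B on the same strand. How far this overlap lowered its count was not tested, so the low count need not mean low expression.

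PCYT1A encodes the CTP:phosphocholine cytidylyl transferase, regarded as the rate-limiting enzyme of phosphatidylcholine synthesis. PCYT1A (ENSG00000161217, chromosome 3, 196214222 to 196287957, minus strand) gave 2105, 2193 and 2190.5 normalised counts with DMSO and 2269, 2439.97 and 2323 with IPI-9119. The lowest treated library was only slightly above the highest control. The means of PCYT1A were 2163 ± 50.1 and 2344 ± 87.6 (SD, n = 3), and the log2 fold change was 0.12 (SE 0.051), not past the threshold (limma adjusted p 0.0622). It passed with the composition adjustment (0.20, adjusted p 0.00224) and without IPI-9119 replicate 1 (0.14, adjusted p 0.0229). Its exons share 389 nt with SLC51A on the opposite strand and 321 nt with another annotated gene on the same strand.

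PCYT2, the cytidylyl transferase of the ethanolamine branch, rose from 1431, 1512 and 1477 normalised counts with DMSO to 1964, 1781 and 1862 with IPI-9119. All treated libraries of PCYT2 (ENSG00000185813, chromosome 17, 81900965 to 81911464, minus strand) were above all controls. The means were 1473 ± 40.4 and 1869 ± 91.6 (SD, n = 3), which is a log2 difference of 0.34 (SE 0.056, limma adjusted p 0.000106). Its transcript is the richest in GC of the 10 at 64.6%, and with the composition adjustment it was 1.17 on the log2 scale (SE 0.076, adjusted p 1.3e-09). The direction held and the size depended on the adjustment. Exons of PCYT2 share 1941 nt with NPB on the opposite strand, and NPB was not analysed here.

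CHPT1 and CEPT1 encode terminal phosphotransferases, CHPT1 acting on CDP-choline and CEPT1 on CDP-choline and CDP-ethanolamine. CHPT1 (ENSG00000111666, chromosome 12, 101696947 to 101744140, plus strand) gave 10522, 9912 and 10528 normalised counts with DMSO and 20323, 18195 and 18514 with IPI-9119. The controls and treated libraries were far apart. The means of CHPT1 were 10321 ± 354 and 19011 ± 1148 (SD, n = 3), which is a log2 difference of 0.88 (SE 0.051, limma adjusted p 3.1e-09). CEPT1 (ENSG00000134255, chromosome 1, 111139627 to 111185102, plus strand) gave 978, 936 and 967 with DMSO and 1329, 1221 and 1225 with IPI-9119, also without overlap. The log2 fold change of CEPT1 was 0.39 (SE 0.061, limma adjusted p 7.0e-05). CHPT1 already held 93.8% ± 0.0810 of the pair's counts per kilobase with DMSO and 95.5% ± 0.0544 in the treated libraries (SD, n = 3). The exact permutation test of that share gave p = 0.1. Exons of CHPT1 share 566 nt with SYCP3, and those of CEPT1 share 288 nt with DRAM2 and 647 and 118 nt with antisense genes, all on the opposite strand.

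Among the 10 genes CHPT1 stood far above the others per kilobase in both groups, at 1719 ± 58.9 with DMSO and 3166 ± 191 in the treated libraries (SD, n = 3). With DMSO, AGPAT1 (304 ± 23.5) and AGPAT5 (303 ± 23.4) came next and did not differ beyond their spread, then PCYT1A (271 ± 6.28), PCYT2 (214 ± 5.86) and CHKA (177 ± 5.76). CEPT1 (114 ± 2.58) lay within the spread of LPIN2 (123 ± 14.4), and both were above GPAM (89.8 ± 4.17). LPIN1 was the lowest of the 10 at 43.2 ± 2.72. With IPI-9119, AGPAT5 came next after CHPT1, at 637 ± 15.0. PCYT1A (294 ± 10.97), PCYT2 (271 ± 13.3) and CHKA (270.2 ± 5.69) all lay within the spread of AGPAT1 (291 ± 28.7). LPIN1 stood at 195 ± 18.7, above CEPT1 (149.6 ± 7.32) and LPIN2 (131 ± 12.9), whose spreads met. GPAM was the lowest at 106 ± 4.29. This order was made by merged exonic length and can differ by other lengths. Merged exons are 11861 nt for LPIN1 and 9808 nt for GPAM, and their longest transcripts 5690 and 6371 nt. For LPIN2 these lengths are 6800 and 6229 nt. An order by longest transcript or coding sequence was not computed.

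With the composition adjustment 8 of the 10 genes were called higher and 1 lower, where 30.6% of all genes were called higher and 34.1% lower. The corrected log2 fold changes of LPIN1 (2.47), AGPAT5 (0.86), CHPT1 (0.64), CHKA (0.47), CEPT1 (0.27) and GPAM (0.24) remained past the threshold. PCYT2 moved most.

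**Figure D3:**
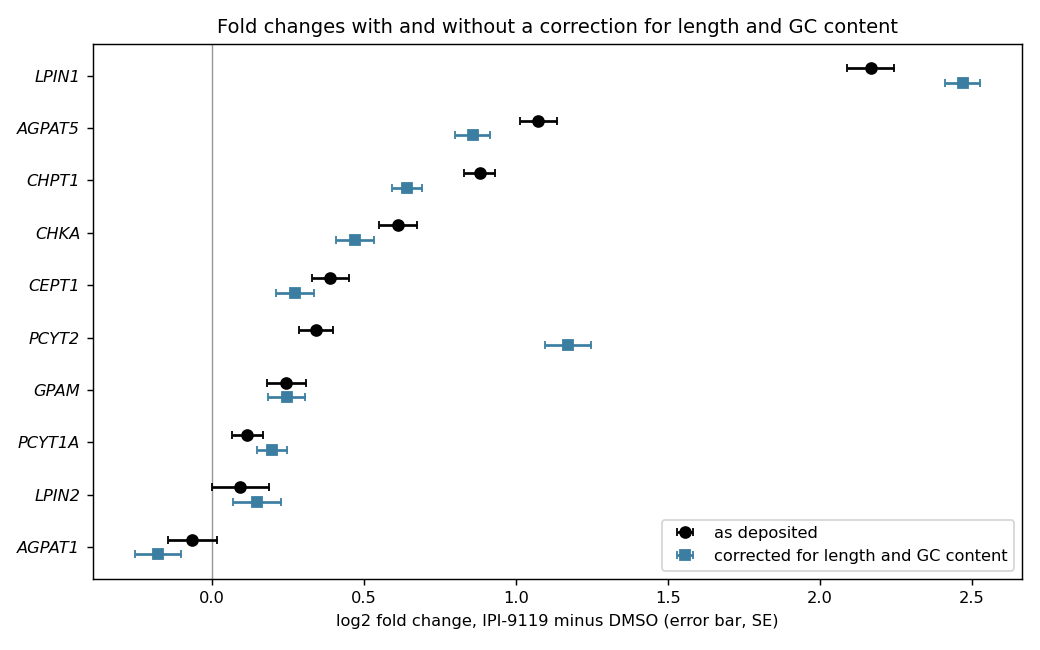
log2 fold change of each gene (x axis, IPI-9119 minus DMSO) as deposited (black circles) and with the composition adjustment for exonic length and GC percent (blue squares), with SE as error bars, genes ordered by the uncorrected value. LPIN1 leads under both at 2.17 and 2.47, and PCYT2 moves from 0.34 to 1.17.

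The sequence before the start of each gene was examined in genes that rose and in a gene that did not pass. RefSeq start windows (GRCh38.p14) were found for 8 of the 10 genes, 17 windows in all, and AGPAT5 and CHKA had no entry. The 250 bases before the start of LPIN1 (the first of its 3 listed starts), CHPT1 and PCYT2 (the first of 2) are shown because these genes rose, and those of AGPAT1 (the first of 5) as a gene whose groups overlapped. They are written 5′ to 3′ on the strand of the gene, and capitals mark CCAAT, the NF-Y box, and GGGCGG, the GC box, on either strand (ATTGG and CCGCCC are their reverse complements; overlapping matches count separately).
LPIN1, chr2:11746382-11746631, plus strand: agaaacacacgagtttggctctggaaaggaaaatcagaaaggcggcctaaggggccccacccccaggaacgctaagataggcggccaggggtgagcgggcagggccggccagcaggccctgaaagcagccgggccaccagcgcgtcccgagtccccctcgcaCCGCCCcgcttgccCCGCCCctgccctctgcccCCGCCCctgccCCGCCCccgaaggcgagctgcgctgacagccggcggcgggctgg
CHPT1, chr12:101697390-101697639, plus strand: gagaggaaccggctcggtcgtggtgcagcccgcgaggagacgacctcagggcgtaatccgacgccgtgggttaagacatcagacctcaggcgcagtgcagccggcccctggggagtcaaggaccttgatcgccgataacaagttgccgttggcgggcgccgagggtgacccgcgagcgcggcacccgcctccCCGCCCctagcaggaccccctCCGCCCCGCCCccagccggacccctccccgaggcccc
PCYT2, chr17:81911400-81911649, minus strand: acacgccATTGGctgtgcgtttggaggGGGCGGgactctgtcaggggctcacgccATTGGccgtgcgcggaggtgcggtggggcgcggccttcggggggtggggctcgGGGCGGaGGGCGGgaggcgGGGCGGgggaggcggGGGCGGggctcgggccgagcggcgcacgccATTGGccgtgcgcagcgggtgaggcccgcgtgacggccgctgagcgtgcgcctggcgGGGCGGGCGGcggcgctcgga
AGPAT1, chr6:32178109-32178358, minus strand: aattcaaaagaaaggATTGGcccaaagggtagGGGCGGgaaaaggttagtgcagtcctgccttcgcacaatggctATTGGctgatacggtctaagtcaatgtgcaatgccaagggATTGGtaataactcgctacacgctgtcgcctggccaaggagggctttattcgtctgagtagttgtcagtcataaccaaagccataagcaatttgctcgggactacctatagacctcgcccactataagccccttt

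In these letters PCYT2 held 3 CCAAT and 7 GGGCGG matches, LPIN1 0 and 4, CHPT1 0 and 3, and AGPAT1 3 and 1. Other listed starts differed: the second window of PCYT2 held 0 and 3, those of LPIN1 held 0 CCAAT and 0 or 1 GGGCGG, and those of AGPAT1 held 0 or 1 CCAAT and 0 to 2 GGGCGG. The genes not printed held 0 CCAAT. Of those that did not pass, LPIN2 held 0 or 4 GGGCGG and PCYT1A 0. Of those that rose, GPAM held 1 and CEPT1 0 or 2. Of 35116 windows of the same length in the RefSeq table, 32% held CCAAT and 2.93% held 3 or more, while 42.6% held GGGCGG and 13.9% held 3 or more. Over the 17 windows of the 8 genes, 4 held CCAAT, 12 held GGGCGG and 1, of LPIN2, held the E-box CACGTG, which 6.34% of all windows held. TCACNCCAC, which resembles the sterol response element, was in 0 of the 17 windows and in 0.883% of all windows. A start with 3 CCAAT matches was present in PCYT2, which rose, and in AGPAT1, which did not pass. Whether any of these matches goes with the changes was not tested. The gene-level counts do not show which start was used.

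The remaining genes on the synthesis lists were described together and then by step. Of all genes tested, 31.3% were called higher and 31.4% lower, which is the background for each of these counts. Of 40 such genes 35 were tested, with 21 higher, 5 lower and 9 not past (median log2 fold change 0.38). With the composition adjustment 20 were higher and 4 lower. GPD1, GPAT2, AGPAT4, SLC5A7 and PCYT1B were not analysed here.

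Choline enters cells through transporters, and 4 of the 6 tested genes listed for uptake rose. FLVCR1, a choline transporter, rose by a log2 fold change of 0.71, its relative FLVCR2 by 1.63 and SLC44A1, a choline transporter-like protein, by 0.57. SLC44A3 rose by 0.52, a call that ended with the composition adjustment (0.30, adjusted p 0.0564). SLC44A2 fell by 0.32 on the log2 scale. SLC44A4, the most abundant of the 6 at 7023 ± 14.2 and 7138 ± 82.0 normalised counts (SD, n = 3), did not pass (0.023, adjusted p 0.641). Whether each of the 6 carries choline in these cells was not tested.

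In the ethanolamine branch 4 of 6 genes rose, PCYT2 and CEPT1 among them. SELENOI, the ethanolamine phosphotransferase that ends this branch, rose from 2777, 2791 and 3191 normalised counts with DMSO to 4946, 5328 and 5431 with IPI-9119, a log2 fold change of 0.84 with the groups far apart (limma adjusted p 3.1e-08). ETNK1, the main ethanolamine kinase here, gave 1826 ± 74.7 and 1825 ± 89.9 (SD, n = 3) and did not pass, while the scarce ETNK2 rose by 1.71 on the log2 scale, with 32, 16 and 27 reads in the controls and 69, 70 and 68 after treatment.

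Base exchange, decarboxylation and methylation, the other routes between phospholipid head groups, gave 3 of 4 genes higher. PTDSS1, which makes phosphatidylserine from phosphatidylcholine, rose by 1.01 on the log2 scale, its normalised count going from 1927 ± 99.5 to 3868 ± 95.2 (SD, n = 3). PTDSS2, which uses phosphatidylethanolamine, rose by 0.58 and the mitochondrial decarboxylase PISD by 0.46. PEMT, which methylates phosphatidylethanolamine to phosphatidylcholine, did not pass (0.15, adjusted p 0.0958), but passed under quantile scaling (0.23, adjusted p 0.0128).

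Phosphatidate that is not dephosphorylated is activated to CDP-diacylglycerol for phosphatidylinositol and cardiolipin. Of 7 genes of that branch 3 rose, 1 fell and 3 missed the threshold, with a median of 0.12 on the log2 scale. Cardiolipin synthase CRLS1 rose by 0.45 and the CDP-diacylglycerol synthase CDS1 by 0.37. The mitochondrial CDP-diacylglycerol synthase TAMM41 fell by 0.40 on the log2 scale. With the composition adjustment CDS1 no longer passed (0.14, adjusted p 0.0600) nor did PTPMT1 (0.088, adjusted p 0.177), while CDS2 (0.45, adjusted p 1.5e-05) and CDIPT, the phosphatidylinositol synthase (0.14, adjusted p 0.0337), did.

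**Figure D4:**
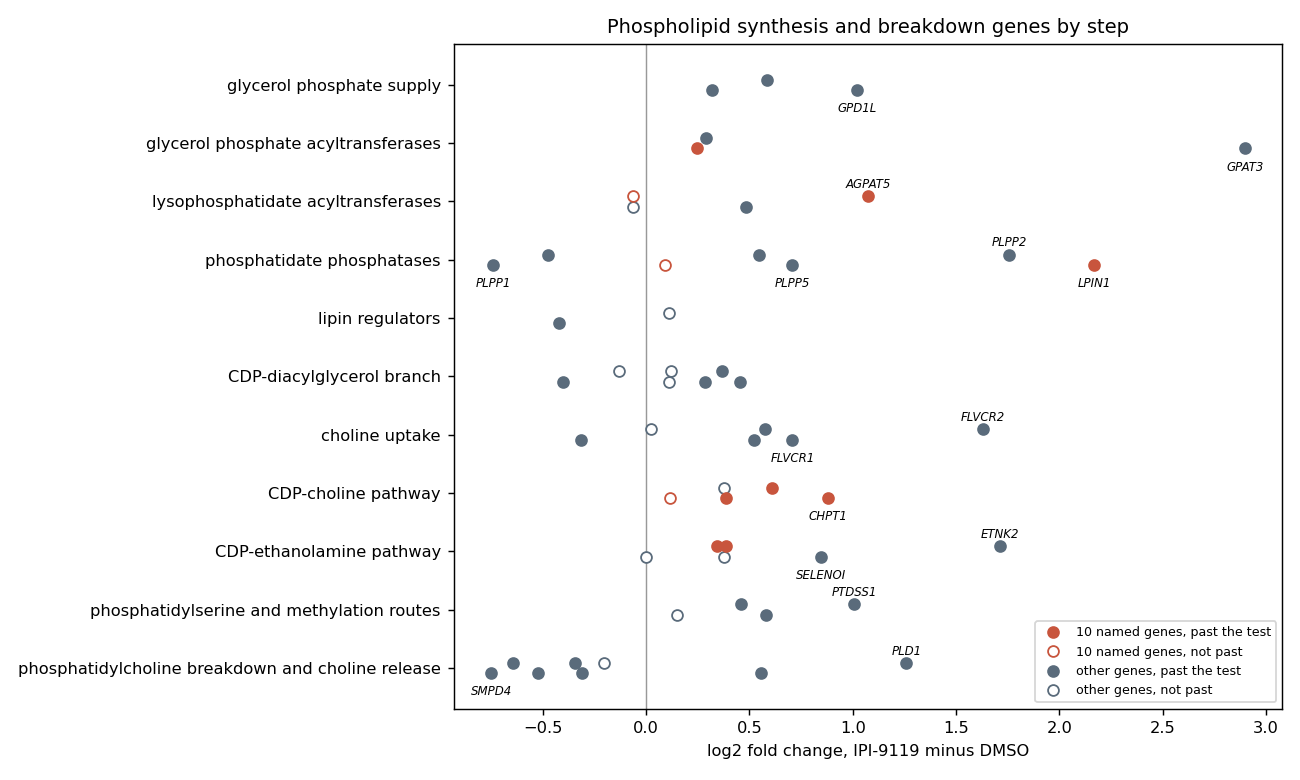
log2 fold change (x axis, IPI-9119 minus DMSO) of each tested gene, grouped by step of the pathway (y axis); red marks the 10 genes followed here, grey-blue the others, and filled points passed the limma test. Most steps of synthesis lie to the right of 0, with GPAT3 (2.90) and LPIN1 (2.17) farthest, and PLPP1 (-0.74) and SMPD4 (-0.75) are farthest to the left. A gene that belongs to 2 steps is drawn in both.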

How the data were processed

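RNA-seq values of 3 IPI-9119 and 3 DMSO libraries were analysed. The deposited table holds a signal, which its values show to be read counts per gene scaled by 1 factor per library. Per the submitters' processing notes the tools were STAR 2.5.2b, Trimmomatic 0.36, Subread 1.5.2, featureCounts and DESeq2, listed in no order, with GRCh38; the annotation release, like the strand setting, is not given in the sources used here. Dividing each column by the value of 1 read (0.894 to 1.10) recovered whole reads for 100% of values (tolerance 0.01 read).

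The main test was limma 3.58.1 (R 4.3.3; trend and robust moderation) on log2(value + 1) for the 14437 genes with a mean of at least 10, two-sided. This scale understates changes of low genes. edgeR 4.0.16 (quasi-likelihood) and DESeq2 1.42.0 on the recovered reads, which called 4479 and 4238 genes higher and 4602 and 4222 lower against 4522 and 4539 with limma, were alternatives. Others were scaling (TMM, quantile), pseudocounts, filters, moderation, a replicate block, a spline correction (4 degrees of freedom each) for exonic length and GC content (14386 genes had both; called the composition adjustment in the results), and leaving out each library. Tests of shares used SciPy 1.17.1. Positions and merged exonic lengths came from GENCODE 29, start windows from RefSeq (GRCh38.p14). Replicate libraries were not copies of each other: chi-square per degree of freedom lay between 2.31 and 9.76.

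The genes followed, the lists and the tests were chosen with earlier results of these data known, so the lists' counts are descriptions. Beside the 10 genes, called genes of the pathway lists were named, always the largest rise and fall, and isozymes that did not pass. CNEP1R1, CDS2, CDIPT, SLC44A4, ETNK1, PEMT and PNPLA7 fall outside that rule and were chosen after their values were seen. The tests were tried on simulated counts of 14371 genes, of which 100 changed 2-fold and 100 changed 1.5-fold. There limma found 99 and 80 of these, with 3 false calls. In the data 62.8% of genes were called, so the simulation does not give the error rate at that extent of change. Of the luminal markers listed, 1 is not reported here.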

Additional observations from a re-analysis of the deposited data

How the results depend on the processing

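Across 18 alternatives the number of the 10 genes called higher was 7 or 8, and the number called lower was 0 except after the length and GC correction (the composition adjustment), where it was 1 (AGPAT1) with and without the replicate block. Of all genes, 28.7% to 33.8% were called higher and 27.9% to 35.7% lower under these settings. Leaving out each library gave 7 to 8 of the 10 genes higher and 0 to 0 lower. Over the 53 tested genes of all pathway lists, the 10 genes and the breakdown list included, it gave 30 to 31 higher and 9 to 10 lower. The log2 fold changes of GPAM, AGPAT5, LPIN1, CHKA, PCYT2, CEPT1 and CHPT1 kept their direction and their call under all 18, and LPIN2 never passed (0.00025 to 0.18 without a library). PCYT1A (0.12) passed with the replicate block (0.12), after the length and GC correction (0.20, also with the block) and without IPI-9119 replicate 1; over the left-out libraries it ran from 0.086 to 0.14. AGPAT1 passed after the correction (-0.18, also with the block) and ran from -0.13 to 0.012 over the left-out libraries, with the sign turned without IPI-9119 replicate 1. The rise in the share of CHPT1, 1.72 percentage points, was 1.94 with the longest transcript as length and 2.26 with the coding sequence. The replicate numbers were not shown to pair the libraries (correlation of deviations 0.141, 0.0634 and 0.00443 for numbers 1, 2 and 3), and the block changed no other call among the 10 genes. Counts of CHKB, GPAT3, ETNK2 and PLD1 are low, so their values are the least precise of those named. Not every overlap of exons was listed above. FLVCR2 shares 332 nt with TTLL5 on the same strand, and SMPD4 shares 815 nt with MZT2B on the opposite strand. What such overlaps add to the counts was not tested.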

Other observations

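Genes that break down phosphatidylcholine and sphingomyelin or release choline were followed as a list of 8. Of these 2 rose, 5 fell and 1 missed the threshold, with a median of -0.33 on the log2 scale. Of all genes tested, 31.3% were called higher and 31.4% lower. PNPLA7 was the gene that missed it (-0.20, adjusted p 0.172), and with the composition adjustment it was called higher (1.01, adjusted p 4.1e-07). SMPD4, a neutral sphingomyelinase, fell from a mean of 822 ± 37.1 to 489 ± 39.6 (SD, n = 3; a log2 difference of -0.75), and stood at -0.10 with the composition adjustment (adjusted p 0.195). PNPLA6, a phospholipase that deacylates phosphatidylcholine, fell by 0.52 on the log2 scale and was higher with that adjustment (0.28, adjusted p 0.00123). PLD2, which cleaves phosphatidylcholine to phosphatidate and choline, fell from 266 ± 17.1 to 170 ± 12.1 (SD, n = 3; a log2 difference of -0.64), and its relative PLD1 rose by 1.26 on the log2 scale, with 24, 27 and 35 reads in the controls and 59, 72 and 48 after treatment. GPCPD1, which releases choline from glycerophosphocholine, fell by 0.34, a call that ended under quantile scaling (adjusted p 0.0745), and the lysosomal sphingomyelinase SMPD1 fell by 0.31. GDE1, a glycerophosphodiesterase, rose by 0.55. With the adjustment 4 of the 8 were higher and 3 lower, so the balance of this list depended on it. Of all genes, 30.6% were higher and 34.1% lower with that adjustment.

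Among the IPI-9119 libraries replicate 1 stood at an end for each of the 10 genes. It was the lowest of the 3 for 5 of them (GPAM, AGPAT1, LPIN1, LPIN2 and PCYT1A) and the highest for the other 5 (AGPAT5, CHKA, PCYT2, CEPT1 and CHPT1). That library also differed most from the others of its group over all genes, with a chi-square per degree of freedom of 7.55 and 9.76 against replicates 2 and 3, which differed by 2.31 from each other. No test was made of this pattern.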
